A study of Rattus norvegicus with 38 samples.

Results

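Acetylation of histone H3 at lysine 27 (H3K27ac), a mark of active promoters and enhancers, was examined at 8 genes for synaptic receptors, channels and scaffolds: Grin2a, Grin2b, Grm7, Cacna1c, Itpr1, Dpp10, Ank3 and Homer1. The members were the 23 peaks that carried one of these gene names in 4 published lists of differentially acetylated regions, found again by exact position in the deposited peak lists. They came from 11317 such peaks matched in this way, and from 151509 peaks in the 2 deposited lists, 80765 of the motor cortex and 70744 of the substantia nigra (SN). Of the 23 peaks, 22 were motor cortex peaks and 1, at Ank3, was an SN peak. The surroundings were every peak of either region within 100 kb of a member, 322 peaks in all, 231 of the motor cortex and 91 of the SN.

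The tissue came from male Lewis rats aged 8 to 10 months that received rotenone, an inhibitor of mitochondrial complex I used to model Parkinson's disease, or vehicle alone. Rotenone was given by daily intraperitoneal injection at 2.8 mg/kg for 21 days, with tissue taken 24 h after the last dose, and the study's methods also describe dosing up to a behavioural endpoint. There were 9 rats, 5 given rotenone and 4 given vehicle, and each rat gave both motor cortex and SN, a region labelled ventral midbrain for the dissection, which gave 18 tissue samples and, with 4 runs of input DNA labelled as cortex, 38 sequencing runs. Of the tissue samples, 16 were sequenced in 2 lanes and 2 in 1 lane, the labels disagree on whether the vehicle was Miglyol or PBS, and all rats were of 1 strain and 1 sex.

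Each deposited list was called by region on pooled rats, rotenone and vehicle together, and gave the position of each peak and no height, count or score. A difference between rotenone and vehicle rats therefore could not be measured here, there was no value for any single rat, and no error between replicates or test of a difference was possible. The lists of origin, one of gained and one of lost acetylation for each region, are used only to say how a member was chosen. What was measured is where peaks lay, how wide they were and whether the other region of the same rats had a peak there. The files give no read depth, but the study's text says that the motor cortex libraries had the higher read coverage, the direction in which more and wider peaks would be called there. Depth and region cannot be told apart in these comparisons. The deposited SN list is also far longer than the SN peak set counted in the study's text, while the motor cortex list is nearly the same length, so whether an SN peak is present here depends on the longer list. In bulk tissue, fewer cells carrying the mark and less of the mark per cell cannot be told apart either, and the peak lists carry no gene names with which the tissue could be checked against marker genes.

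Fast excitatory transmission in the brain runs through glutamate receptors held in the postsynaptic density by scaffold proteins. Calcium that enters through NMDA receptors and voltage-gated channels, or leaves the endoplasmic reticulum through inositol trisphosphate receptors, carries the synaptic signal onward, and metabotropic receptors adjust it. Cortical projection neurons are rich in these proteins. The dissected SN holds dopaminergic and GABAergic neurons among many glia. The cell make-up of the samples was not measured here.

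Homer1, whose long Homer proteins tie metabotropic glutamate receptors to inositol trisphosphate receptors, had the only member peak annotated as a promoter. Grm7 encodes a presynaptic metabotropic receptor. Both regions had peaks beside the start sites of these 2 genes, so their promoters are shown, from 250 bases before to 50 after the RefSeq start on build GRCr8, with each CpG in capitals.
Homer1, chr2:26278762-26279061, plus strand: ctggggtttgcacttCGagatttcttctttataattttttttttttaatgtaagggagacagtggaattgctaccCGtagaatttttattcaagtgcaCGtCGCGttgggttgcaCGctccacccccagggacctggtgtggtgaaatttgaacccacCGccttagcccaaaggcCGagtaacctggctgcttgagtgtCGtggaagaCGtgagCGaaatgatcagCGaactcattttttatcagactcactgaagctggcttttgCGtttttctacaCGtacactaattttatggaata
Grm7, chr4:145286476-145286775, plus strand: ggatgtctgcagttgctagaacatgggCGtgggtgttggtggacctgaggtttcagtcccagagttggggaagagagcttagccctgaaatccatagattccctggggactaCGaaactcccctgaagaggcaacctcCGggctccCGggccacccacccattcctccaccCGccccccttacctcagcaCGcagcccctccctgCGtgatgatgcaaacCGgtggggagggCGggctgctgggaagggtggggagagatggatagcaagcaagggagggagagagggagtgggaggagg
The Homer1 sequence held 14 CpG and was 44.7% G or C, and the Grm7 sequence held 9 CpG and was 62.0% G or C. The medians over 33469 RefSeq promoters were 7 CpG and 51.7%. Neither sequence held the cyclic AMP response element TGACGTCA or its shorter core TGACG on either strand, letters found in 1.83% and 21.2% of all promoters (each full site also counts as a core). Promoters of 6 of the 8 genes were in the table, and 1 core in the Cacna1c promoter was the only match among them. Peak coordinates below are on build mRatBN7.2, and whether the RefSeq starts are those used for the peak annotation was not tested.

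Start sites could be placed on mRatBN7.2 for 5 of the genes. At Homer1, peaks of the motor cortex covered 84.1% of the bases within 3 kb of the start and SN peaks 39.4%. At Grm7 the coverage was 61.6% and 38.5%, from a motor cortex peak of 5970 bp (chr4:143730164-143736133) and an SN peak of 2307 bp (chr4:143730916-143733222). At Grin2b, which encodes the NMDA receptor subunit that dominates early in life, it was 98.0% and 35.8%, from peaks of 11471 bp (chr4:169033686-169045156) and 2148 bp (chr4:169042332-169044479). At each of these 3 genes a motor cortex peak covered the start itself, while the SN peak lay beside it and none covered it. The gaps to the SN peak were small, 14 bp at Homer1, 53 bp at Grm7 and 52 bp at Grin2b. Ank3, the gene of ankyrin-G, which anchors sodium channels at the axon initial segment and also occurs in spines, was nearly as widely marked in both, with every base within 3 kb covered in the motor cortex and 84.5% of them in the SN. Dpp10, an auxiliary subunit of Kv4 potassium channels, was the exception at the start placed for it. There, 7.97% of the bases lay in motor cortex peaks and none in an SN peak. RefSeq lists alternative promoters for Dpp10, and coverage away from the placed start was not examined.

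At the members themselves, SN peaks were often missing. Of the 22 motor cortex members, 14 had no SN peak over any base (63.6%, Wilson 95% bounds 43.0 and 80.3%), where 44.9% of all motor cortex peaks had none. These bounds include that 44.9%, and they allow for counting error alone, as if the peaks were independent, although several share a gene. Members from the list of gains lacked an SN peak in 12 of 18 cases, against 29.5% of all motor cortex peaks in that list, and members from the list of losses in 2 of 4 cases, against 44.6%. The split among genes was wide. Of the 7 motor cortex members at Ank3, 1 lacked an SN peak, while of the 15 at the other 7 genes 13 did. For the 14 members without an SN peak, the median distance to the nearest one was 10.1 kb. It was 15.7 kb over all motor cortex peaks without one and 23.3 kb over those in the lists of gains and losses. The median stretch free of SN peaks was 91.8, 86.5 and 117.8 kb in the same order. By the median distance, these members were no farther from SN peaks than other motor cortex peaks without one.

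**Figure D1:**
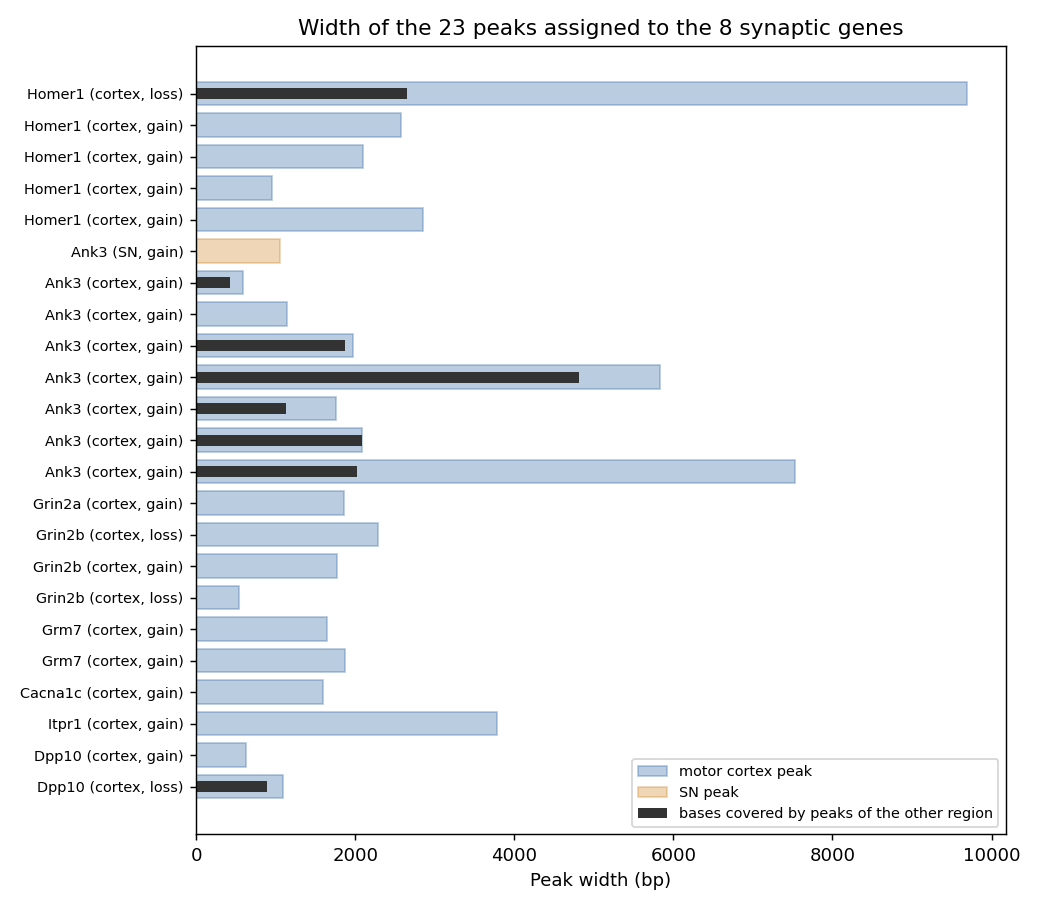
Width in bp of each of the 23 member peaks, in blue for motor cortex and orange for SN, with the list of origin in the label; the dark bar is the number of bases covered by peaks of the other region. The dark bars occur mostly at Ank3, and the widest peak, 9692 bp at Homer1, is covered over 27.3% of its bases.

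By annotation, 17 members lay in introns, 3 in exons, 2 in distal intergenic sequence and 1 at a promoter. The motor cortex members had a median width of 1868 bp, with a range from 545 to 9692 bp. The median of all motor cortex peaks was 1245 bp and that of the motor cortex peaks in the lists of gains and losses 1684 bp, so the members were close in width to the other listed peaks.

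At Grin2a, which encodes the NMDA receptor subunit that dominates in the adult cortex, the member was an intronic peak of 1863 bp (chr10:5891892-5893754) from the list of gains. The nearest SN peak was 47.4 kb away. The SN list was empty over 265.0 kb around the member, a stretch in which the motor cortex list had 49 peaks. In the 201.9 kb window, 41 motor cortex peaks covered 44.3% of the bases, and the 2 SN peaks, of 297 and 390 bp, covered 0.34%. The bases covered were thus 130.1 times as many in the motor cortex, the most uneven of the genes that had any SN peak.

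Grin2b had 3 members, all without an SN peak. An intronic peak of 2283 bp (chr4:168669156-168671438) came from the list of losses, an intronic peak of 1776 bp (chr4:168924797-168926572) from the list of gains, and a distal intergenic peak of 545 bp (chr4:169047212-169047756) from the list of losses. SN peaks were close to all 3, at 4.59, 6.74 and 2.73 kb. The first lay at the edge of an SN-free stretch of 462.7 kb with 33 motor cortex peaks. Over both windows, 525.2 kb in all, 68 motor cortex peaks covered 25.9% and 11 SN peaks 2.01%. Most SN peaks here lay over motor cortex peaks: 10 of the 11 overlapped one, where 34.7% of all SN peaks overlapped none. In all 12 overlapping pairs the motor cortex peak was the wider, by a median ratio of 8.23. These pairs count a motor cortex peak once for each SN peak over it and include SN peaks just beyond the window edge. The widest peak of all windows, 17645 bp of the motor cortex (chr4:168760162-168777806), also lay at Grin2b.

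Grm7 had an exonic member of 1644 bp (chr4:144430371-144432014) and an intronic one of 1873 bp (chr4:144446046-144447918), both from the list of gains. They were the only 2 peaks of either region in their 217.5 kb window. The nearest SN peaks were 127.2 and 111.3 kb away, and both members lay in 1 SN-free stretch of 823.9 kb that held 9 motor cortex peaks. Around the members the SN list was therefore empty, although an SN peak lay beside the start site.

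The channel genes also had more motor cortex than SN peaks around their members. Cacna1c, the pore subunit of the L-type calcium channel Cav1.2, had an intronic member of 1590 bp (chr4:152187197-152188786) from the list of gains, with the nearest SN peak 23.8 kb away. Its window held 14 motor cortex peaks and 5 SN peaks, over 16.6% and 1.96% of the bases. RefSeq places Cacna2d4 beside this gene and Dcp1b over it, so peaks of the window need not belong to Cacna1c.

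Itpr1, the main inositol trisphosphate receptor of neurons, had an intronic member of 3780 bp (chr4:141230137-141233916) from the list of gains, wider than 90.8% of motor cortex peaks. No SN peak lay within 36.6 kb of it. The 21 motor cortex peaks of the window covered 22.7% and the 3 SN peaks 1.57%, and each of the 3 SN peaks overlapped a motor cortex peak.

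Dpp10 had 2 members that differed from each other. A distal intergenic peak of 632 bp (chr13:34343817-34344448), from the list of gains, lay 551.6 kb from the nearest SN peak, in an SN-free stretch of 1153.2 kb with 12 motor cortex peaks. An intronic peak of 1095 bp (chr13:34945606-34946700), from the list of losses, met the only SN peak of the Dpp10 windows, 1088 bp wide (chr13:34945404-34946491), which covered 80.9% of it. Peaks were sparse here in both regions, 2.85% of the bases in the motor cortex and 0.271% in the SN.

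The scaffold gene Homer1 had members with and without SN peaks. Its promoter peak (chr2:24535909-24545600), from the list of losses, was 9692 bp wide, wider than 99.0% of motor cortex peaks, and 3 SN peaks of 281, 1813 and 552 bp covered 27.3% of it. The other 4 members followed within the gene and came from the list of gains: chr2:24550098-24552678, chr2:24553033-24555128, chr2:24556210-24557161 and chr2:24557654-24560508, with widths of 2581, 2096, 952 and 2855 bp. None of these 4 had an SN peak, and all lay in 1 SN-free stretch of 91.8 kb that began 1.39 kb before the first of them. Between the promoter peak and these 4 lay a motor cortex peak (chr2:24546554-24548773) with an SN peak of 932 bp over part of it. Thus SN peaks occurred at the promoter and at this next peak, and were missing from the intronic cluster that followed. The window held 15 motor cortex peaks and 6 SN peaks, over 13.9% and 2.03% of the bases. A motor cortex peak in it (chr2:24444975-24445890, from the list of losses, no SN peak) is listed under the neighbouring gene Tent2.

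Ank3 had 8 members, all from lists of gains. The SN member, an intronic peak of 1054 bp (chr20:18869378-18870431), had no motor cortex peak over it, although one lay 485 bp away. Of the 7 motor cortex members, the one without an SN peak was intronic and 1144 bp wide (chr20:18720067-18721210), 11.2 kb from the nearest SN peak. The other 6 were covered by SN peaks to unequal extents, from 26.9% of the widest, 7532 bp (chr20:19043946-19051477), to the whole of a peak of 2089 bp (chr20:18910237-18912325). Between these were 72.4% of a 591 bp peak (chr20:18681428-18682018), 94.6% of an exonic 1974 bp peak (chr20:18755418-18757391), 82.6% of an exonic 5834 bp peak (chr20:18758284-18764117) and 64.3% of a 1764 bp peak (chr20:18764249-18766012).

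The window of Ank3, 570.0 kb, was the only one of the 8 genes with more SN than motor cortex peaks, 63 against 60, though the motor cortex peaks covered more of it, 23.2% against 13.6%. The order of the counts turned when peaks under 1000 bp were left out, to 27 against 42, and when peaks up to 1 kb apart were merged, to 40 against 46. SN peaks crowded into the first 150 kb after the placed start, a limit chosen after the map was seen. There, 38 SN peaks covered 50.4 kb and 19 motor cortex peaks 44.4 kb, and 15 of the SN peaks had no motor cortex peak. In the rest of the window the order turned. Beyond 150 kb, which holds 5 of the motor cortex members, 23 motor cortex peaks covered 38.7 kb and 14 SN peaks 13.9 kb. Before the placed start, 18 motor cortex peaks covered 48.9 kb and 11 SN peaks 13.3 kb. That start was the one on which 7 of the 8 Ank3 entries agreed. The member at chr20:19043946-19051477 lies before it yet is annotated as intronic, so part of the segment before the placed start may lie within Ank3. The SN member lay in the SN-rich segment. Also in the window, 2 motor cortex peaks without an SN peak (chr20:18675042-18676074 and chr20:18650466-18653679) are listed as gains under Mrln, a micropeptide gene.

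**Figure D2:**
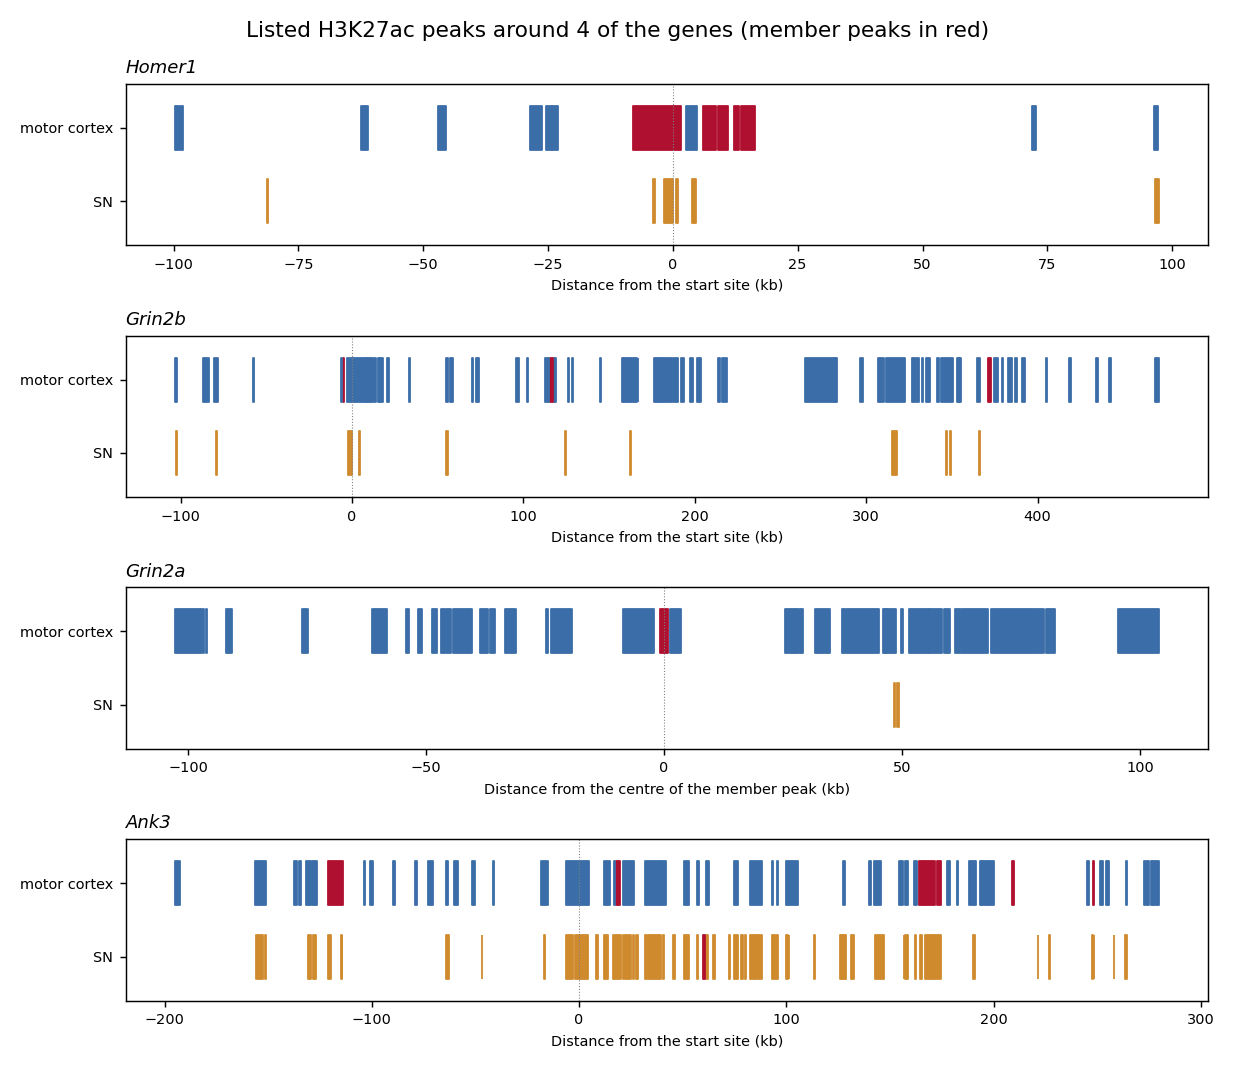
Peaks of the motor cortex (blue) and SN (orange) around Homer1, Grin2b, Grin2a and Ank3, with members in red; the horizontal axis is the distance in kb from the start site, in the direction of transcription, or from the centre of the member for Grin2a, and narrow peaks are drawn slightly wider to be visible. SN peaks are scarce at the first 3 genes, with 6, 11 and 2 against 15, 68 and 41 in the motor cortex. They are dense after the start placed for Ank3, and part of the sequence before that start may lie within the gene.

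Over the windows of all 8 genes, 2546.4 kb, the 231 motor cortex peaks were 2.54 times as many as the 91 SN peaks and covered 4.76 times as many bases (19.0% against 3.99%). In the whole lists those ratios were 1.14 and 1.39, but the windows were drawn around members of which 22 of 23 were motor cortex peaks, and the members are counted in them, so part of the excess follows from how they were chosen. Counted the same way, the median number of peaks within 100 kb was 18 in the motor cortex and 6 in the SN around the 22 motor cortex members, and 14 and 11 around any motor cortex peak. No SN peak lay over 180 of the 231 motor cortex peaks (77.9%, against 44.9% of the whole list). Conversely, 25 of the 91 SN peaks had no motor cortex peak (27.5%, against 34.7% of the SN list), and 21 of those 25 were at Ank3. Leaving out Ank3, the 171 motor cortex peaks were 6.11 times as many as the 28 SN peaks.

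**Figure D3:**
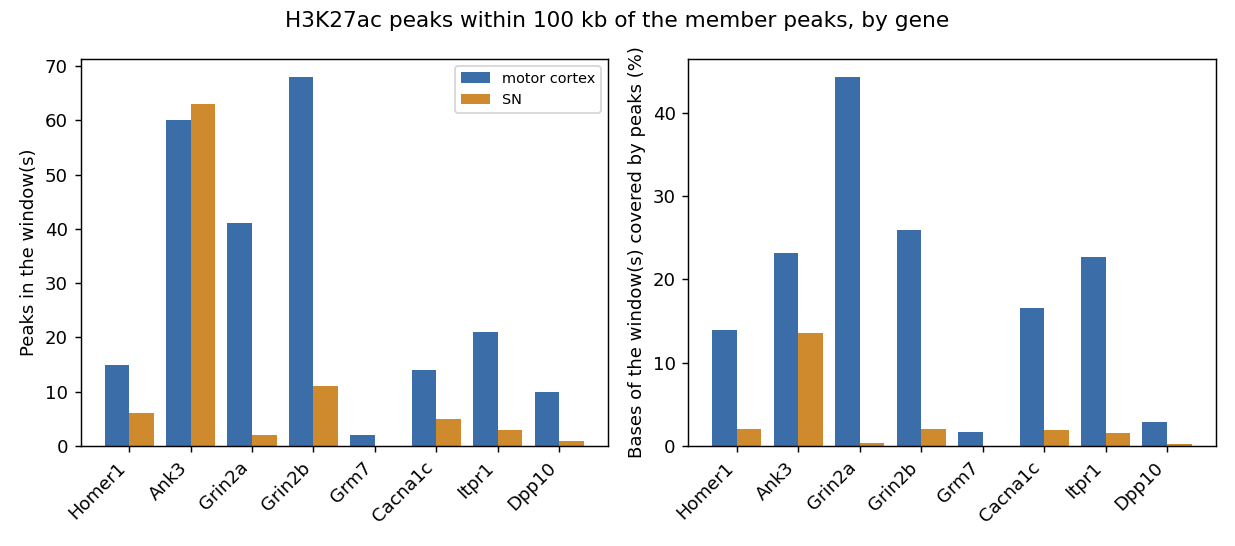
Number of peaks (left) and share of bases covered in percent (right) within 100 kb of the members of each gene, motor cortex in blue and SN in orange. Every gene except Ank3 has more motor cortex than SN peaks, and at all 8 the motor cortex covers more, most unevenly at Grin2a with 44.3% against 0.34%.

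The peaks were also wider in the motor cortex. The median width in the windows was 1335 bp there and 787 bp in the SN, beside 1245 and 994 bp in the whole lists. In the windows, 45 of 231 motor cortex peaks and 6 of 91 SN peaks reached 3000 bp. In the whole lists, 14.3% and 9.79% did, so the motor cortex peaks were the wider there too. Where peaks of the regions overlapped, the motor cortex peak was the wider in 59 of 69 pairs (85.5%, median ratio 2.38), against 57.9% of 50733 pairs in the whole lists (median ratio 1.09). At Ank3 the motor cortex peak was the wider in 34 of 43 pairs, with a median ratio of 1.67. At Homer1 it was the wider in all 5 pairs, with a median ratio of 5.35. A peak was counted once for each partner, and 3 of the 5 Homer1 pairs were the same promoter peak of 9692 bp, so this contrast rests largely on 1 peak.

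The surroundings of single members can be set beside those of every motor cortex peak. Within 100 kb, SN peaks made up a median of 13.3% of the bases covered by either region (each region counted separately) around the 22 members, 41.0% around all motor cortex peaks and 42.3% around those in the lists of gains and losses. The share was under 20% for 14 of the 22 members (63.6%) and for 21.8% of all motor cortex peaks. It was lowest at Grm7 and the intergenic Dpp10 peak, at 0.0%, then 0.763% at Grin2a, 4.52 to 11.2% at Grin2b, 6.49% at Itpr1, 10.5% at Cacna1c and 12.8 to 13.3% at Homer1. The intronic Dpp10 peak, at 23.6%, and the Ank3 peaks, at 20.6 to 44.3%, made up the rest. Members of 1 gene share most of their window and are not independent points.

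**Figure D4:**
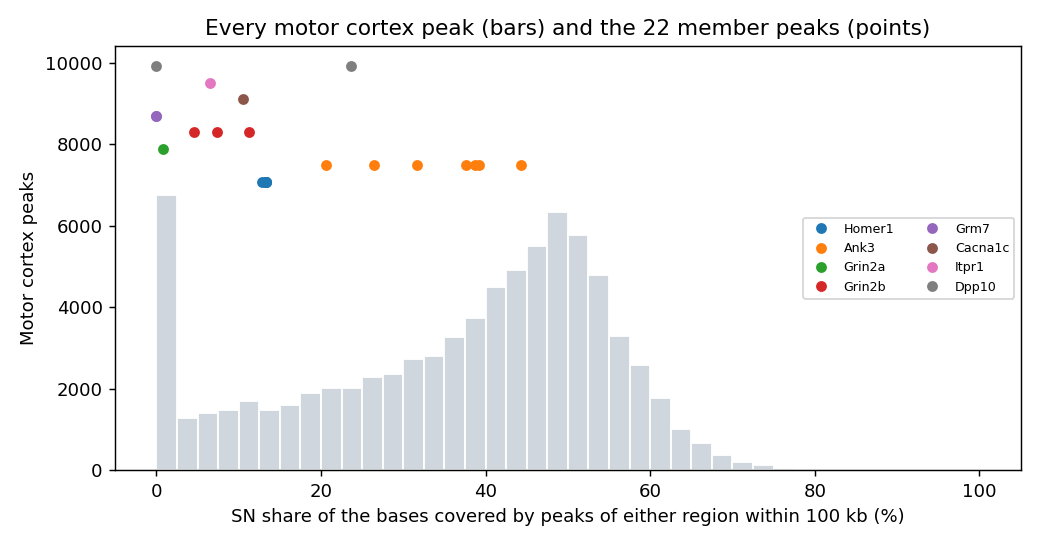
SN share, in percent, of the bases covered by peaks of either region within 100 kb, for all motor cortex peaks (grey bars, number of peaks) and the 22 members (points coloured by gene, placed above the bars at arbitrary heights, with some points on top of each other). Members of 6 genes lie at or under 13.3%, left of the median of 41.0%, and those of Ank3 range from 20.6 to 44.3%.

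Genes of the same families were compared through a list of 65 related synaptic genes. In the motor cortex, 29 of them had 78 peaks in the lists, 24 of gains and 54 of losses, and 46 of the 78 (59.0%) had no SN peak. Gained peaks lacked one in 14 of 24 cases and lost peaks in 32 of 54, beside 29.5% and 44.6% of all motor cortex peaks in those lists. In the SN, 6 of the 65 genes had 6 listed peaks, and all 6 overlapped a motor cortex peak. Most SN peaks do so, as 34.7% of the SN list overlapped none.

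The groups differed in how they compared with their member. Their shares without an SN peak, from few peaks each, can be set beside the 44.9% of all motor cortex peaks. Among voltage-gated calcium channel subunits, relatives of Cacna1c, 9 of 13 listed motor cortex peaks at 7 genes had no SN peak (69.2%). All 9 came from the list of gains, but so did 10 of the 13. Cacna1b, the N-type channel, had 4 of these 13 peaks, 3 of them without an SN peak. Among the postsynaptic scaffolds, relatives of Homer1, 33 peaks at 6 genes were listed, 30 of them as losses, and 23 had no SN peak (69.7%). Dlg2, the gene of PSD-93, held 13 of them, 11 without an SN peak, and Shank2, which binds Homer, held 3, of which 2 had none. Dlg1, the gene of SAP97, went the other way, with an SN peak at each of its 5.

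The receptor families were mixed. Of the AMPA and kainate receptor subunits, relatives of Grin2a and Grin2b, 12 peaks at 4 genes were listed and 6 had no SN peak. All 3 at the AMPA subunit gene Gria3 lacked one, with an SN share of 0.0% around them, while 1 of the 7 at the kainate subunit gene Grik4 did, with a median SN share of 58.1%. The only other NMDA receptor gene listed, Grin2c, had 2 peaks, both shared with the SN. Of 5 peaks at the metabotropic receptor genes Grm3, Grm5 and Grm8, 3 had no SN peak (60.0%), and the 2 at Grm3 were shared.

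Relatives of the intracellular and potassium channel members differed by gene. The genes Itpr2 and Ryr2 had 5 listed peaks, 1 without an SN peak (20.0%). The 4 at Itpr2 were all shared, with a median SN share of 54.0% around them, above that of the Itpr1 member. The 1 at Ryr2 had no SN peak and a share of 5.64%, near the 6.49% of the Itpr1 member. Of 7 peaks at 5 genes of the Kv4 complex, for which Dpp10 is an auxiliary subunit, 3 had no SN peak. That was 42.9%, against 44.9% of all motor cortex peaks. The 3 peaks at Kcnd3 and the 1 at Kcnip3 were shared, and those at Kcnd2, Kcnip1 and Kcnip4 were not. Ank1, an ankyrin of red cells and some neurons, had 1 listed peak, from the list of losses and without an SN peak.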

How the data were processed

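H3K27ac ChIP-seq peaks of rat motor cortex and SN were analysed. The deposited lists hold peak positions (chromosome, start and end) on build mRatBN7.2, and the authors pooled all rats of a region to make them. The submitters' processing notes name Trim Galore 0.6.7, Bowtie2 2.4.4, Picard 2.6.0 and MACS2 2.2.7.1. Depth by region, and the filter that splits some peaks, are not given as values in the files. The deposited SN list is longer than the SN peak set counted in the study's text, for a reason not given in the sources used here.

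The named genes were the 8 members, and every peak listed under one of those names is described. Members and lists were chosen with earlier results of these data known. The 4 lists of gained and lost acetylation were read as text from page images and matched to the peaks by exact position, so a misread gene name or position loses a member and counts are lower bounds. Their columns of fold changes, p-values and FDR hold the authors' own comparisons and were not used. From these lists came gene names, annotation classes and, where at least 2 entries of a gene agreed, a start site, which need not be the only one.

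Peaks sharing at least 1 bp were counted as overlapping. Alternatives were a reciprocal overlap of 50%, a gap of up to 1 kb, peaks of at least 1000 bp, merged peaks, windows of 50 and 200 kb, and assignment by transcript. Analyses used Python 3.11.15, numpy 2.4.6, pandas 2.3.3 and scipy 1.17.1. Overlaps, tested on 4000 simulated intervals, differed from bedtools 2.31.1 for 0 of them. Promoters came from RefSeq (GRCr8). Sequences of the peaks were not analysed here.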

Additional observations from a re-analysis of the deposited data

How the results depend on the processing

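No paired analysis was possible because the deposited peaks pool all rats of a region, and for the same reason no rat could be left out. The number of motor cortex members without an SN peak, 14 of 22 in the analysis reported, was 16 of 22 under a reciprocal overlap of 50%, 14 of 22 with gaps of up to 1 kb allowed, 11 of 18 for peaks of 1000 bp or more, 16 of 24 by transcript and 13 of 15 without Ank3. Of 40 checks of the summary values, 28 stayed within the set margin and 12 moved further. Without Ank3, an alternative chosen after seeing the data, 88.9% of motor cortex peaks in the windows had no SN peak, 14.3% of SN peaks had no motor cortex peak, the ratio of motor cortex to SN peaks was 6.11 and SN peaks covered 1.22% of the windows. Under a reciprocal overlap of 50%, by construction a stricter match, 87.0% of motor cortex and 67.0% of SN peaks in the windows, and 76.9% of the motor cortex peaks at related genes, had no partner. With gaps of up to 1 kb counted as shared, 18.7% of SN peaks had none. Leaving out peaks narrower than 1000 bp left 14.3% of SN peaks without a partner and gave a ratio of 4.37. Merging peaks left 70.2% of motor cortex peaks without an SN peak. With windows of 50 kb, SN peaks covered 6.02%. Causes of the last 2 shifts were not tested. The order of Ank3 changed with the setting, its ratio running from 0.918 to 1.56, while for the other 6 genes with an SN peak in their windows the motor cortex had more peaks under each alternative that gave a ratio. Depth limits every comparison between the regions: the study's text gives the motor cortex the higher read coverage, and its part in the results was not tested.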
